A study of Mus musculus with 16 samples.

Results

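The nuclear-encoded genes of the respiratory chain and ATP synthase were examined in mouse clear cell sarcoma (mCCS), a soft-tissue tumour driven by the fusion of EWSR1 with the transcription factor ATF1 (EA1). Members were all protein-coding genes of GENCODE release M21 on mm10 whose symbols begin Nduf, Sdha to Sdhd, Uqcr or Atp5, or Cox4i, Cox5, Cox6, Cox7 or Cox8. The rule found 98 of 21938 protein-coding genes, which carry 97 symbols because Atp5o has 2 gene models, and it used no measured value. Of these, 84 encode subunits or their isoforms, and 14 encode assembly factors or other associated proteins. The genes lie on 19 chromosomes, and 3 of them lie on X.

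The data were ChIP-seq peak lists from tumours of mice of a mixed inbred background that included C57Bl/6. Human EWSR1::ATF1 carrying a V5 tag was expressed from the Rosa26 promoter after TATCre, a Cre recombinase that enters cells, was injected into the hindlimb of mice a few weeks old. All 16 samples came from tumours of this EWSR1::ATF1 genotype: 4 each for anti-V5, anti-Pol2 (RNAPOL2), anti-H3K27ac and Input chromatin. Anti-V5 marks the fusion, and anti-Pol2 marks RNA polymerase II, in its phosphorylated form according to the study. H3K27ac is an acetylated histone of active promoters and enhancers. The samples include no untreated, fusion-free or normal tissue group. The deposited lists are 1 per antibody, with 10665 V5 peaks, 20375 Pol2 peaks and 27552 H3K27ac peaks, and they hold no value per sample, so no error between tumours could be given. The deposited V5 list is shorter than the set of binding sites the study describes, so every V5 share and every absence of V5 below holds for this list alone. The intervals below are 95% Wilson intervals and cover counting error only. The rest of the report calls a gene marked when a peak overlapped a window reaching 3 kb to each side of any of its annotated transcription start sites (TSSs), and gives a gene the score of its highest such peak.

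The tumours are bulk tissue, in which a low signal from all cells and a strong signal from few cells cannot be told apart. Among melanocytic genes characteristic of clear cell sarcoma, Mitf had Pol2 and H3K27ac promoter peaks with scores of 191 and 372 and Pmel with scores of 1281 and 822. Dct had only a V5 peak (score 218), and Sox10, Tyr, Mlana and Tyrp1 had no promoter peak in any list. Of 12 skeletal muscle genes, 4 had a Pol2 peak and 2 an H3K27ac peak. H3K27ac peaks were present at 6 of 6 leukocyte, 4 of 6 endothelial and 4 of 5 fibroblast genes, and Pol2 peaks at 2 of 6, 2 of 6 and 2 of 5 of the same genes. Of all coding genes, 58.6% had an H3K27ac and 53.5% a Pol2 promoter peak. None of the muscle, leukocyte, endothelial or fibroblast genes had a V5 peak, against 16.6% of all coding genes. Each of these lists had only 2 genes with both Pol2 and H3K27ac peaks.

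Mitochondrial respiration depends on subunits from both genomes, and the nucleus supplies all but a few of them. Complexes I and II feed electrons from NADH and succinate to ubiquinone, complex III passes them to cytochrome c, complex IV hands them to oxygen, and complex V, the ATP synthase, uses the proton gradient so built to make ATP. Nuclear respiratory genes are known to be controlled in part by the factors NRF1, GABP (an ETS factor), YY1 and ERRα with coactivators of the PGC-1 family, and ATF1 belongs to the CREB family, whose members bind the cAMP response element (CRE), TGACGTCA.

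The exact CREs are shown first because the CRE is the known element of the ATF1 family. Of the 18 V5 peaks at respiratory chain genes, 4 held TGACGTCA, and the 30-base windows around these sites are shown with the CRE in capitals. They were read from mm10 5′ to 3′ on the strand of the named gene.

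Ndufa10, chr1:92473807-92473836, minus strand: acactcagtggTGACGTCAtggcagcgcgc
Ndufb2, chr6:39592540-39592569, plus strand: gtgcgacgcagTGACGTCAcgggccgggac
Uqcrfs1, chr13:30545327-30545356, minus strand: cggcgtcgcgcTGACGTCAcaaaccctgcg
Atp5d, chr10:80141381-80141410, plus strand: gggcagggtgaTGACGTCAtgaccgagagc
Ndufa11, chr17:56717593-56717622, plus strand: tttacctttccTGACGTCAcgggcgtctct

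The CRE of Ndufa10 began at base 36 of its principal transcript and that of Uqcrfs1 at base 18, both in an untranslated part of an exon. The principal transcript is the coding transcript preferred by the annotation. The CRE of Ndufb2 began at position -23 and that of Atp5d at position -65 from the principal TSS, the latter inside the span of a longer Atp5d transcript but in no exon. Ndufa11, an accessory subunit of complex I, is shown as the member with a CRE and no V5 promoter peak: its site lay at position -163, in an untranslated exon of the neighbour Vmac, whose TSS is 82 bp away, and the nearest V5 peak was 90517 bp from its TSSs. The 250 bases before the principal TSS of Ndufb2, where the annotation has no exon, show its CRE in place at the TSS end of the promoter.

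Ndufb2, chr6:39592324-39592573, plus strand: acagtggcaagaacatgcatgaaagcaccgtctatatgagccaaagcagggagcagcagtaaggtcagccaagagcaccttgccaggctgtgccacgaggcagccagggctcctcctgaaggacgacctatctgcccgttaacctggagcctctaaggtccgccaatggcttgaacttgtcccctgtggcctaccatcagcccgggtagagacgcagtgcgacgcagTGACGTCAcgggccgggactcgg

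Some other V5 peaks held a CRE that differed from the consensus at 1 or both of its middle bases (TGANNTCA) or an AP-1 site (TGAGTCA), the element of the related Fos and Jun proteins. These windows are shown as close matches in peaks without an exact CRE, with the site in capitals.

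Ndufb6, chr4:40279533-40279562, minus strand: agggaccttccTGAGCTCAtacttaaccca
Uqcrq, chr11:53430844-53430873, minus strand: gttcccggaaaTGACTTCAcgttctctagg
Atp5l, chr9:44921110-44921139, minus strand: aagctcctattTGACCTCAgacctgctatg
Atp5l, chr9:44921157-44921186, minus strand: tcggtgaatgggTGAGTCAcataatgtaac
Atp5g1, chr11:96075608-96075637, minus strand: aaagctgggaggTGAGTCAgtcaccttgag

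Nearly all respiratory chain genes carried both marks of active promoters, while fewer than 1 in 5 had a peak in the deposited V5 list. Pol2 peaks were found at 92 of 98 genes (93.9%, interval 87.3 to 97.2%) against 53.5% of all protein-coding genes, and H3K27ac peaks also at 92 (93.9%) against 58.6%. Both marks were present at 89 genes (90.8%, interval 83.5 to 95.1%) against 52.2% of coding genes. These shares lay far above those of all coding genes, a set that includes many genes silent in any given tissue.

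V5 peaks were found at 18 genes (18.4%, interval 11.9 to 27.2%), a share whose interval includes the 16.6% of all coding genes. All 18 carried Pol2 and H3K27ac peaks as well, so the share of members in all 3 lists was also 18.4%, beside 15.9% of coding genes. Read against the 11443 coding genes with both marks, of which 30.4% had a V5 peak, 18 of 89 members with both marks had one (20.2%, interval 13.2 to 29.7%). The difference was not seen in the upper 50% of each list by score. There V5 peaks were found at 12 of 84 members with both marks (14.3%, interval 8.37 to 23.3%) and at 14.2% of coding genes with both marks. That setting also cut the Pol2 and H3K27ac lists, and the part of weak V5 peaks in the difference was not tested. The V5 peaks at members had a median score of 283, against 196 at all 3640 coding genes with a V5 promoter peak.

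**Figure D1:**
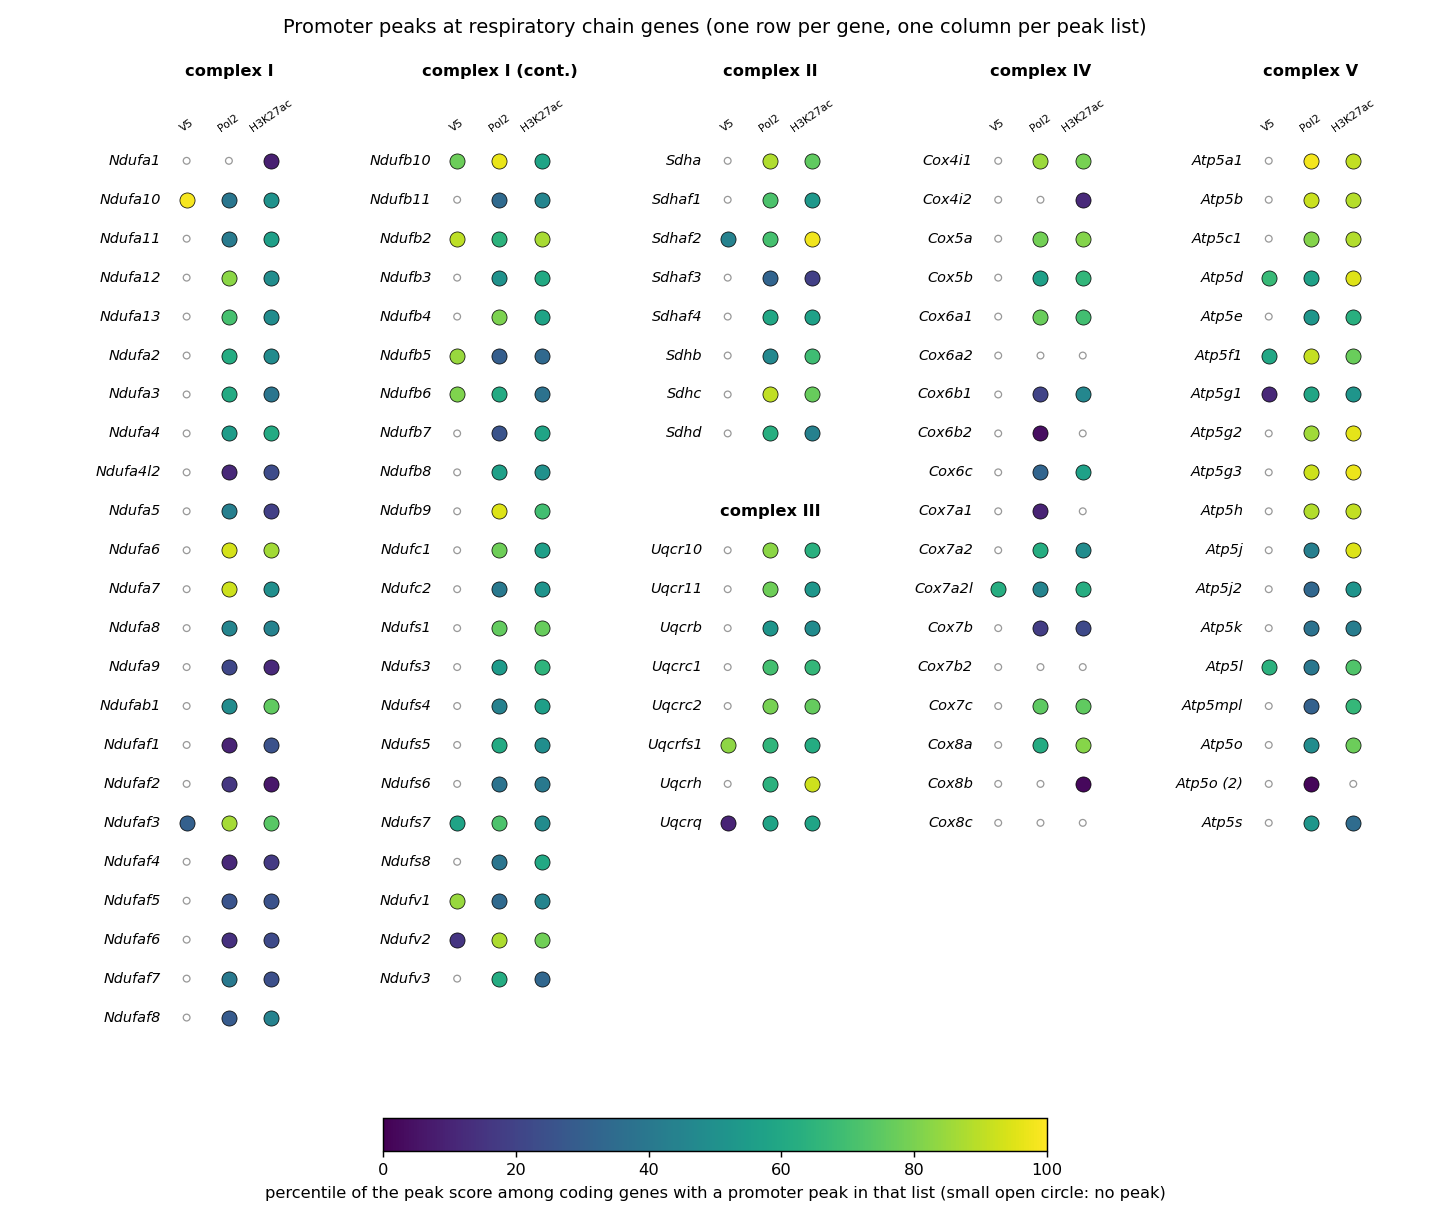
Promoter peaks of 97 of the 98 respiratory chain genes in the V5, Pol2 and H3K27ac lists, by complex. Each filled circle is a gene with a peak, coloured by the percentile of its peak score among all coding genes with a promoter peak in that list, and each small open circle a gene without. Atp5o (2) is the other Atp5o gene model. Pol2 and H3K27ac circles fill almost every row outside complex IV, while V5 circles appear in few rows.

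V5 peaks were found at subunit genes of complexes I, III and V. For complexes II and IV they were found only at the assembly factor gene Sdhaf2 and at Cox7a2l, counted here as no subunit. V5 peaks were present at 10 of 46 complex I genes (21.7%), 1 of 8 complex II genes (12.5%), 2 of 8 complex III genes (25%), 1 of 18 complex IV genes (5.56%) and 4 of 18 complex V genes (22.2%). The intervals of all 5 shares overlapped and included the 16.6% of all coding genes, and that of complex IV ran from 0.988 to 25.8%. Within complex I, 2 of 10 genes of the N module, which oxidises NADH, 2 of 6 genes of the Q module, which reduces ubiquinone, and 5 of 22 other subunit genes had a V5 peak. The remaining complex I peak was at 1 of the 8 Ndufaf assembly factors. The 4 Sdh subunit genes of complex II had no V5 promoter peak.

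Pol2 and H3K27ac were complete or nearly so outside complex IV. Pol2 peaks were found at 45 of 46 complex I genes, at all 8 genes of complex II and all 8 of complex III, and at all 18 of complex V. H3K27ac peaks were found at 46, 8, 8 and 17 genes of the same complexes. In complex IV, 13 of 18 genes had a Pol2 peak (72.2%, interval 49.1 to 87.5%) and 13 an H3K27ac peak, with 11 in both sets. The genes that accounted for this difference were isoforms of tissue-restricted expression, described below.

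**Figure D2:**
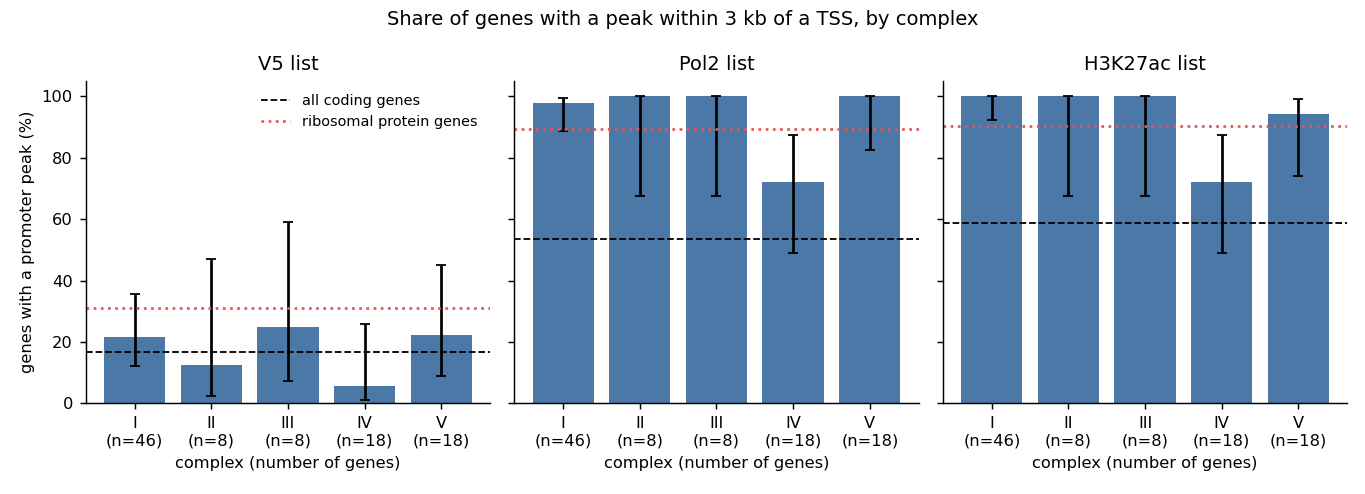
Share of genes (%) with a promoter peak in the V5, Pol2 and H3K27ac lists for each respiratory complex, with 95% Wilson intervals, the number of genes under each bar, and lines for all coding genes and for cytosolic ribosomal protein genes. V5 shares range from 5.56% in complex IV to 25% in complex III, and the Pol2 and H3K27ac bars of complex IV stand at 72.2%.

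The strengths of the marks were moderate. Among coding genes with a peak in the list, the median member stood at percentile 57.4 by Pol2 score and 56.9 by H3K27ac score, with quartiles at 38.7 and 77.3 for Pol2 and 44.3 and 75.4 for H3K27ac. By complex, the median Pol2 percentile was 51.1 in complex I, 66.7 in II, 67.9 in III, 56.3 in IV and 54.7 in V. For H3K27ac the same medians were 48.9, 62.8, 62.5, 62.4 and 77.4, so complex V stood highest by acetylation but not by polymerase. The 8 Ndufaf genes, which encode proteins that help build complex I but leave the finished enzyme, lay low, with medians at percentile 20.8 for Pol2 and 24.6 for H3K27ac, against 56.6 and 50.6 for complex I subunits.

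The members with the highest Pol2 scores were Atp5a1 (5184), Ndufb10 (4121), Ndufb9 (3534), Ndufa6 (3268) and Atp5g3 (3062). Atp5a1 encodes the α subunit of the catalytic head of ATP synthase, Atp5g3 encodes subunit c of its membrane rotor, and the Nduf genes encode accessory subunits of complex I. The Ndufb10 value belongs to a peak that also overlaps the window of the adjacent ribosomal protein gene Rps2, and it overlapped the V5 peak over the Rps2 TSS. The highest H3K27ac scores were at Sdhaf2 (4596), Atp5g3 (4238), Atp5g2 (3816), Atp5d (3616) and Atp5j (3596). Sdhaf2 is needed to attach the flavin cofactor to Sdha, Atp5d encodes the δ subunit of the central stalk, and Atp5j encodes coupling factor 6 of the peripheral stalk. The Atp5d score came from a peak 2971 bp from its nearest TSS, whereas the H3K27ac peak that overlapped its V5 peak scored 1504. Coding TSSs on the opposite strand lay 70 bp from Atp5a1 (Haus1) and 18 bp from Ndufb9 (Tatdn1). Others lay 84 bp from Sdhaf2 (Cpsf7), 16 bp from Atp5d (Cbarp) and 31 bp from Atp5j (Gabpa). Ndufb10, Ndufa6, Atp5g2 and Atp5g3 had no such TSS within 1 kb. Promoter peaks in the shared windows cannot be assigned to the member alone.

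The strongest V5 peak at a respiratory chain gene was at Ndufa10, which encodes an accessory subunit in the membrane arm of complex I. The peak, at chr1:92473381-92474220, scored 3466, ranked 181 of 10665 V5 peaks, was 840 bp wide and was centred 60 bp after the principal TSS, with Pol2 and H3K27ac scores of 707 and 883 at the same promoter. Among coding genes with a promoter peak in the same list, Ndufa10 stood at percentile 98.5 by V5 score, 39.1 by Pol2 score and 50.9 by H3K27ac score. The peak at Ndufb2, another membrane arm subunit, lay at chr6:39592201-39593010 and scored 1259 (rank 888, centred at +31) beside a Pol2 score of 1265 and an H3K27ac score of 2453. Both peaks held a CRE.

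The next V5 peaks were at Ndufb5 and Ndufv1, which had the same score of 875 (rank 1441). Ndufb5 encodes a membrane arm subunit, and its peak, centred at -125, also covered the TSS of Mrpl47, a mitochondrial ribosomal protein gene starting 20 bp away in the opposite direction. Ndufv1 encodes the FMN-binding subunit that accepts electrons from NADH, and its peak was centred at +141 with no other coding TSS within 3 kb. Neither peak held a consensus CRE or an AP-1 site, and both held the short core TGACG.

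Uqcrfs1, which encodes the Rieske iron-sulfur protein of complex III, had a V5 peak of score 784 (rank 1629) centred at +67 over its CRE. Ndufb6, a membrane arm subunit of complex I, had a peak of score 663 centred at +31, with the TGAGCTCA site shown above. Ndufb10, also of the membrane arm, had a peak of score 568 that lay 2339 bp from its nearest TSS and directly over that of Rps2. For Ndufb10 the call therefore rested on the width of the window, and the peak itself was nearer to a ribosomal protein gene.

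Complex V had 4 V5 peaks, of middle to low score. Atp5d had a peak of score 338 (rank 3690) centred at -12 over a CRE, and the peak covered no TSS of another coding gene. Atp5l, encoding subunit g of the membrane part, had a peak of score 289 whose edge was 119 bp from its TSS. Atp5f1, encoding subunit b of the peripheral stalk, had a peak of score 253 downstream of the principal TSS that covered a further Atp5f1 TSS and the TSS of Wdr77. Atp5g1, encoding subunit c, had a peak of score 60 (rank 9948), among the weakest in the list.

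Cox7a2l encodes a factor that joins complexes III and IV into supercomplexes and was counted here as no subunit of complex IV. It had the only V5 peak among the Cox members, of score 277 centred at -90. The peak at Ndufs7, a core Q module subunit, scored 241 and was centred at +84.

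The other V5 peaks named here were weak. Sdhaf2 had a score of 163 at a promoter shared with Cpsf7, the assembly factor gene Ndufaf3 had 113, the N module iron-sulfur subunit gene Ndufv2 had 71, and Uqcrq, a small subunit of complex III, had 59 at a promoter shared with Gdf9. Ndufv2 and Ndufaf3 were nevertheless among the stronger polymerase promoters of the group, with Pol2 scores of 2413 and 2321.

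**Figure D3:**
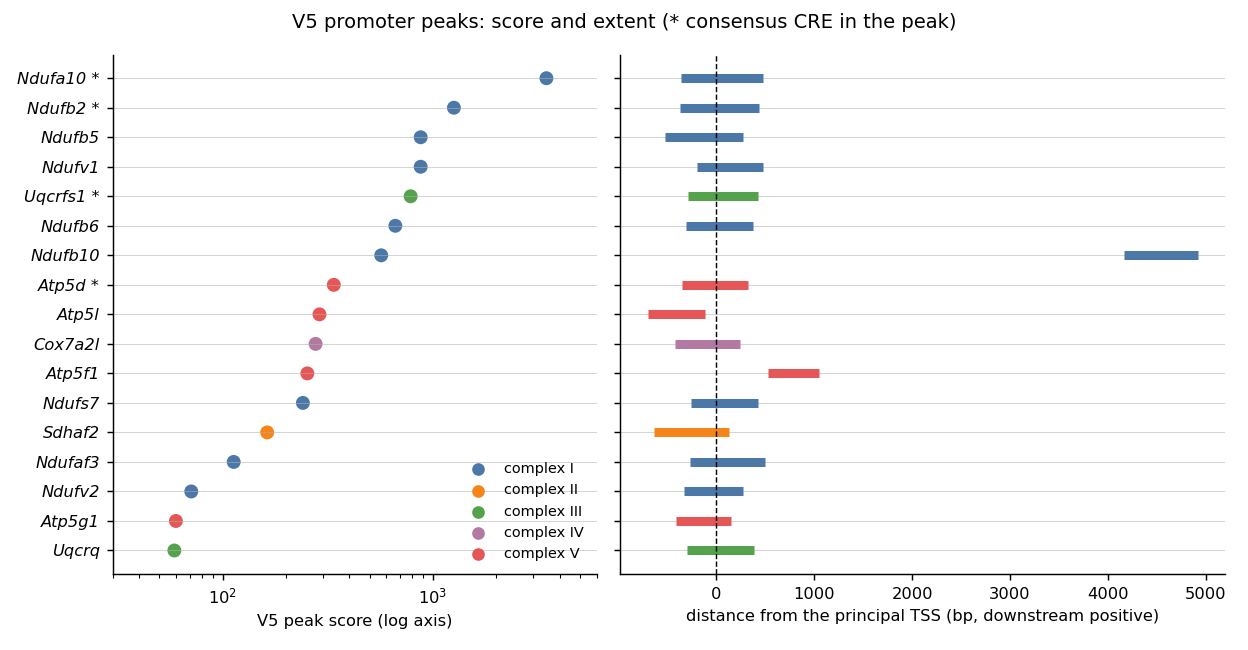
V5 promoter peaks at respiratory chain genes, with the peak score (left, log axis) and the extent of the peak from the principal TSS in bp (right), coloured by complex. Asterisks mark peaks with a consensus CRE. Most peaks cover or adjoin the principal TSS, and those of Ndufb10 and Atp5f1 lie downstream of it.

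By distance, 16 members had a V5 peak over a TSS (16.3%, against 13.6% of coding genes), 25 had one within 10 kb (25.5%, against 21.3%) and 47 had one within 50 kb (48.0%, against 41.3%). Of the 89 members with both marks, 45 had a V5 peak within 50 kb (50.6%, interval 40.4 to 60.7%), against 59.1% of coding genes with both marks. The 80 members without a V5 promoter peak had their nearest V5 peak at a median of 91255 bp, and 51 of them had none within 50 kb. Just outside the promoter window lay Atp5h, a peripheral stalk gene, with a V5 peak at 3118 bp, and just inside it lay Ndufb10 at 2339 bp. Ndufa6 followed at 4847 bp, Cox6c at 5591 bp and Cox6a1 at 7264 bp, and the farthest was Cox7b, on X, at 3665420 bp. None of the 3 members on X had a V5 promoter peak.

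Among coding genes with both marks, V5 peaks were more frequent at promoters with stronger Pol2 or H3K27ac peaks, and the respiratory chain genes did not follow that order for Pol2. From the lowest to the highest quartile of Pol2 score, 15.7, 23.4, 31.6 and 51.1% of coding genes had a V5 peak. The respiratory chain genes in the same quartiles numbered 10, 25, 29 and 25, and 0, 5, 9 and 4 of them had a V5 peak (0, 20, 31.0 and 16.0%). In the highest quartile the respiratory chain share was thus 16.0% beside 51.1%. The genes behind it included Atp5a1, Atp5b, Ndufb9, Ndufa6, Ndufa7 and Atp5g3, with Pol2 scores from 3023 to 5184 and no V5 promoter peak.

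Over quartiles of H3K27ac score the coding gene shares were 12.1, 21.9, 34.0 and 53.9%, and 0 of 11, 6 of 28, 8 of 34 and 4 of 16 respiratory chain genes had a V5 peak (0, 21.4, 23.5 and 25%). Counting only V5 peaks in the upper 50% by score, the highest Pol2 quartile had 2 of 25 members (8.0%) beside 19.0% of coding genes, and the highest H3K27ac quartile 2 of 16 (12.5%) beside 20.4%. In the middle quartiles the shares of members were then the higher ones, at 20 and 17.2% beside 12.6 and 12.8% by Pol2 score and at 17.9 and 14.7% beside 10.7 and 14.5% by H3K27ac score. With these stronger peaks, members thus lay below coding genes in the lowest and highest quartiles and not in those between. Quartile counts of this size have wide intervals, and the differences were not tested.

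**Figure D4:**
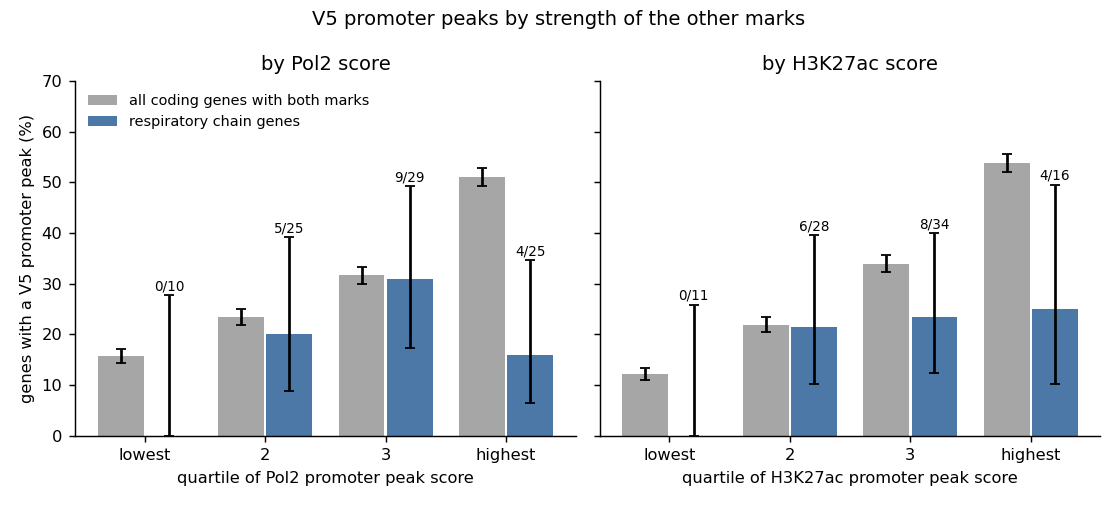
Share of genes (%) with a V5 promoter peak by quartile of Pol2 score (left) and H3K27ac score (right), for all coding genes with both marks (grey) and for respiratory chain genes with both marks (blue), with 95% Wilson intervals and, above the blue bars, the genes with a V5 peak and the genes in the quartile. In the highest Pol2 quartile the bars stand at 51.1% and 16.0%.

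Other large sets of housekeeping genes gave a scale for these shares. Of 94 cytosolic ribosomal protein genes, 29 had a V5 peak (30.9%), and of those with both marks 34.5% had one, with a median Pol2 score at percentile 92.6. Of 40 proteasome subunit genes, 8 had a V5 peak (20%), and of those with both marks 21.1% had one, with a median Pol2 percentile of 54.9. The respiratory chain genes, at 20.2% and percentile 57.4, were near the proteasome genes in both values, and their interval for V5 overlapped that of the ribosomal protein genes. Genes with near-identical copies elsewhere in the genome, as many ribosomal protein genes have, may lose peaks where reads cannot be placed. This was not tested for any of the sets.

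Other genes of mitochondrial energy metabolism were counted in the same way, beside the 16.6% of all coding genes and the 30.4% of those with both marks. The lists are short, their intervals are wide, and differences between them were not tested. Outside the regulators, all of the lists counted here had Pol2 and H3K27ac peaks at every gene. Of 13 genes of the tricarboxylic acid cycle, which supplies NADH and succinate, 7 had a V5 peak (53.8%, interval 29.1 to 76.8%), among them Ogdh (score 376), Sucla2 (331), Idh3b (301), Dlst (153), Dld (142) and Fh1 (103). Of 8 genes for electron carriers and related inner membrane enzymes 3 had one, at Coq7 (1375), Cycs (708), which encodes cytochrome c, and Coq9 (421). Assembly genes gave 5 of 16 for cytochrome oxidase, led by Coa5 (1825) and Cox18 (742), and 3 of 6 for complex III, led by Uqcc2 (680). The mitochondrial ribosome, the largest list, had V5 peaks at 15 of 78 genes (19.2%), close to the share of the respiratory chain genes.

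Of 13 genes for transcription and maintenance of mitochondrial DNA 5 had a V5 peak, led by Mterf1b (577) and Mterf1a (574), and Tfam, which packages and activates the mitochondrial genome, had none beside Pol2 and H3K27ac scores of 1199 and 838. Regulators of respiratory genes, a list that includes the CREB family itself, had V5 peaks at 10 of 16 genes (62.5%, interval 38.6 to 81.5%). The highest were at Crem (19716), Creb1 (3795) and Yy1 (2925), followed by Ppard (551) and Ppargc1a (230), which encodes PGC-1α and had no Pol2 promoter peak. Weak V5 peaks lay at Atf1 (153), Gabpb1 (122), Ppargc1b (67), Pprc1 (43) and Nrf1 (35), and there was none at Gabpa or Esrra, while Esrrb, Esrrg and Ppara had no promoter peak in any list. The V5 scores of Crem and Creb1 thus lay above those of every respiratory chain gene, and that of Yy1 above all but Ndufa10.

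Of the 98 genes, 9 lacked a Pol2 or an H3K27ac promoter peak, and 7 of these encode isoforms of complex IV subunits. Cox6a2, of heart and skeletal muscle, and Cox7b2 and Cox8c, of testis, had no peak in any list. Cox7a1, a muscle isoform, had a Pol2 peak of score 193 that spanned its whole 1935-bp gene and no H3K27ac peak, and the testis isoform Cox6b2 had a Pol2 peak of score 111 and no H3K27ac peak. Cox8b, of muscle, and Cox4i2, known from lung, had only H3K27ac peaks of scores 65 and 171 at 1645 and 2767 bp from a TSS.

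The widely expressed isoforms of the same subunits had both marks. Pol2 and H3K27ac scores were 2155 and 1905 at Cox4i1, 1733 and 1452 at Cox6a1, 369 and 777 at Cox6b1, 1186 and 822 at Cox7a2, 331 and 321 at Cox7b, and 1178 and 2048 at Cox8a. For each of these subunits the widely expressed form had both marks, and none of its restricted isoforms had the pair. The muscle isoforms lay without the full pair of marks in tumours raised in the hindlimb, where the muscle genes Mylpf (Pol2 1248, H3K27ac 2305) and Actn3 (599 and 573) had both marks and Tnnt3 (117) and Atp2a1 (47) had Pol2 alone. The other 8 of the 12 muscle genes, Acta1, Ckm, Myh1, Myh2, Myh4, Tnni2, Tnnc2 and Pvalb, had no promoter peak in any list. The part of remaining muscle fibres in these values was not tested.

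Outside complex IV, Ndufa1, an X-linked accessory subunit gene of complex I, had an H3K27ac peak of score 140 and no Pol2 peak, and its TSS lies 82 bp from that of Rnf113a1. The other Atp5o model, 242585 bp long, had only a Pol2 peak of score 71 that was 2322 bp from its nearest TSS, while the 6474-bp Atp5o gene had scores of 880 and 1796. Ndufa4, named for complex I but since assigned to complex IV, had scores of 1022 and 1131, and its hypoxia-induced paralogue Ndufa4l2 had 223 and 334. The 3 genes for the identical mature subunit c differed, with Pol2 and H3K27ac scores of 1118 and 914 at Atp5g1, 2245 and 3816 at Atp5g2 and 3062 and 4238 at Atp5g3. Only the lowest of these, Atp5g1, had a V5 peak.

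Respiratory chain genes often shared a promoter region with another gene, which bears on how peaks are assigned. Another coding TSS lay within 3 kb of 46 of 98 members (46.9%, interval 37.4 to 56.7%), against 19.3% of coding genes and 30.2% of those with both marks. The 46 include both Atp5o models, whose nearest other coding TSS is that of the other model. A coding TSS on the opposite strand lay within 1 kb of 36 members (36.7%, interval 27.9 to 46.6%), against 11.9% and 20.5%. Such pairs included Ndufs1 with Eef1b2 and Ndufb11 with Rbm10, both 3 bp apart, Ndufa7 with Rps28 (10 bp), Ndufs6 with Mrpl36 (29 bp), Atp5j with Gabpa (31 bp), Sdhd with Timm8b (98 bp) and Cox4i1 with Emc8 (101 bp). Several partners are themselves genes of translation or mitochondria, and Gabpa encodes the DNA-binding subunit of GABP. Among members with both marks, V5 peaks were found at 8 of 43 with another coding TSS in the window (18.6%) and at 10 of 46 without (21.7%). The same shares of coding genes with both marks were 32.6 and 29.5%, and the difference was not tested. The peak at Ndufb10, over the Rps2 TSS, is among those in shared windows.

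Called Pol2 peaks covered a median of 7.83% of the gene body in the 89 members with both marks, against 3.42% in coding genes with both marks and 39.1% in ribosomal protein genes. The members are short genes, with a median length of 7760 bp against 23848 bp. In genes of up to 5000 bp the medians were 18% for 26 members and 28.0% for 1356 coding genes, and from 5000 to 10000 bp they were 6.93 and 9.74%. At like length, Pol2 peaks thus covered a smaller part of respiratory chain genes in these classes, while from 10000 to 20000 bp the order was the other way, at 5.59% for 16 members and 4.92%, and above 20000 bp the medians were 1.49% for 15 members and 1.51%. A Pol2 peak lay over the gene end of 10 of the 89 members (11.2%, interval 6.22 to 19.5%), against 17.3% of coding genes with both marks. That pair was not matched for length. From the shortest to the longest of the same length classes, the member shares were 15.4, 15.6, 6.25 and 0%. The coding gene shares were 27.9, 25, 22.3 and 11.3%, higher in each class. The member shares rest on few genes, and the differences were not tested.

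Promoter CREs were few. In the 300 bases from 250 before to 50 after the principal TSS, TGACGTCA was present in 5 of 89 members with both marks (5.62%), 3.52% of coding genes with both marks and 2.48% of all coding genes. V5 peaks were present at 4 of these 5 members and at 14 of the other 84 (16.7%). Coding genes with both marks showed the same order, with V5 peaks at 83.6% of 403 with a CRE and at 28.5% of those without. Since the CRE was present in so few promoters, most members with V5 had none.

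The short core TGACG, which is contained in the CRE, was present in 37 of the 89 promoters (41.6%), against 33.0% of coding genes with both marks and 23.7% of all. V5 peaks were found at 12 of the 37 members with it (32.4%) and at 6 of the 52 without (11.5%). The same shares were 48.2 and 21.7% in coding genes with both marks. Both coding gene shares lay inside the intervals of the members, which ran from 19.6 to 48.5% with the core and from 5.40 to 23% without it.

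Within the 18 V5 peaks, 4 held TGACGTCA (22.2%, interval 9.0 to 45.2%), against 14% of the 3595 V5 peaks at coding promoters. In the central 200 bp the shares were 22.2% and 9.46%, so each CRE at a member lay in the middle of its peak. The TGANNTCA variants were found in 4 peaks (22.2%, against 22.4%), TGAGTCA in 3 (16.7%, against 13.8%) and TGACG in 15 (83.3%, against 79.7%). Strings of more than 4 TGA or TCA units were in none of the 18, against 3.98% of all. No CRE, variant, AP-1 site or string was found in 9 peaks (50%, against 57.9%). All searches used both strands and exact letters, and a match is a description of sequence only.

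Motifs of the known regulators of respiratory genes were also counted in the 300-base promoters with both marks. The NRF1 motif GCGCATGCG was found in 9 of 89 members (10.1%, interval 5.41 to 18.1%), against 3.78% of coding genes with both marks and 2.53% of all. These were Atp5g2, Atp5k, Atp5l, Cox6a1, Ndufa11, Ndufaf4, Ndufaf5, Ndufs8 and Uqcr11, of which Atp5l alone had a V5 peak. The ERR motif TCAAGGTCA was found in 3 (3.37%, interval 1.15 to 9.45%), against 0.297% and 0.392%, namely Atp5g3, Cox6c and Sdhd, none with V5. The YY1 motif AAGATGGCG was found in 4 (4.49%, against 3.32 and 1.88%) and the ETS motif CCGGAAG in 17 (19.1%, against 18.6 and 11.2%). For NRF1 and ERR the background shares lay below the intervals of the members, and for YY1 and ETS the share of coding genes with both marks lay inside them. In promoters of 600 bases the YY1 share was 10.1% (interval 5.41 to 18.1%) beside 4.70% of coding genes with both marks, which then lay below the interval.

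The ERR sites and 2 NRF1 sites are shown for comparison with the CREs, with the motif in capitals. On the strand of these genes the ERR motif reads as its complement, TGACCTTGA.

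Atp5g3, chr2:73911360-73911389, minus strand: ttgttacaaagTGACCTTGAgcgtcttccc
Cox6c, chr15:35937797-35937826, minus strand: cgcggccaggtTGACCTTGAttgggtcgtt
Sdhd, chr9:50603795-50603824, minus strand: gggttgtagagTGACCTTGAgccctcgaaa
Uqcr11, chr10:80406808-80406837, minus strand: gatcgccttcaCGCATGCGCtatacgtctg
Ndufaf4, chr4:24897960-24897989, plus strand: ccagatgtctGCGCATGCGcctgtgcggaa

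V5 peaks were found at 1 of 9 members with an NRF1 motif (11.1%) and 17 of 80 without (21.2%), and the corresponding shares of coding genes with both marks were 24.3 and 30.7%. Median GC content of the promoters was 56.7% in members with both marks and 61.3% in coding genes with both marks. The counts were not matched for GC content, and its part in them was not tested.

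**Figure D5:**
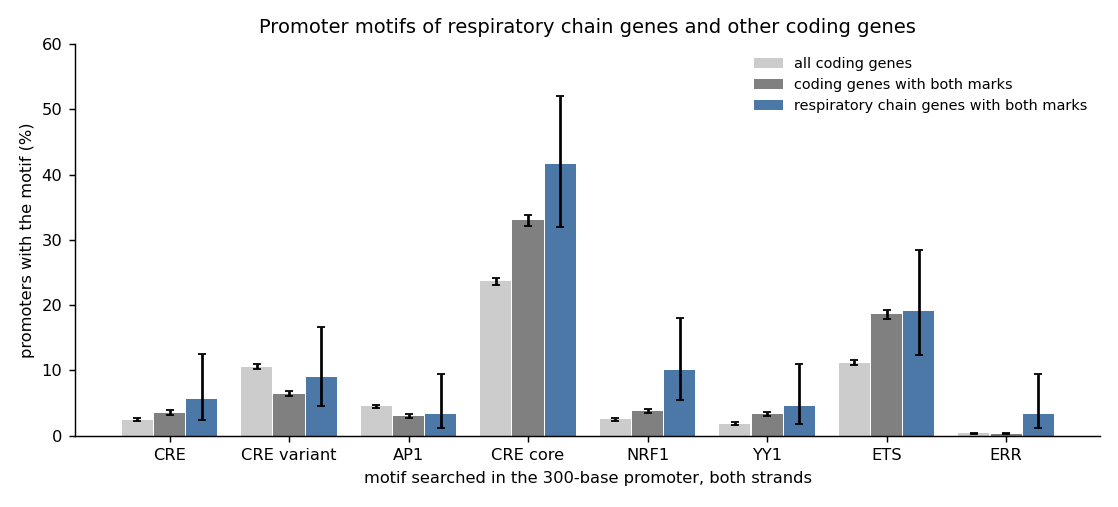
Share of 300-base promoters (%) holding each motif in all coding genes, coding genes with both marks and respiratory chain genes with both marks, with 95% Wilson intervals. CRE core is TGACG. NRF1 motifs are found in 10.1% of respiratory chain promoters and 3.78% of coding promoters with both marks, and ETS motifs in 19.1 and 18.6%.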

How the data were processed

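Chromatin from mCCS tumours was immunoprecipitated with antibodies to V5, phosphorylated RNA polymerase II and H3K27ac and sequenced. Per the study's methods and the submitters' processing notes, the authors aligned reads to mm10 with BWA 0.7.10-r789, removed duplicates, called peaks with MACS2 2.2.6 against input chromatin, with the broad option for H3K27ac, and dropped denylisted regions. The deposited values are a whole-number score per peak, whose scale is not given in the sources used here, so no score was set against that of a different list. Whether tumours were pooled before calling is not given either, and the methods name more V5 and RNAPOL2 samples than the labels, so the samples behind each list are unknown. The methods state a target depth, and the lists hold no read counts. The 4 samples per antibody could not be treated as replicates.

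Peaks were assigned to GENCODE M21 genes by overlap of at least 1 bp with a 3 kb window around any TSS. All 21 chromosomes fitted the reference used for sequence, with 0 peaks past an end. Sequences are from GRCm38. RefSeq's promoter table held 79 members, of which 14 had the identical window and sequence, and was used only for that check. Shares carry 95% Wilson intervals. Python 3.11.15, pandas 2.3.3, numpy 2.4.6 and matplotlib 3.10.9 were used, and the overlap and interval code was tested on simulated data. The motif search was not tested in this way.

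The members, gene lists and motifs were chosen with earlier results of these data known. Named were members with a V5 promoter peak, members without a Pol2 or H3K27ac promoter peak, the 5 highest by Pol2 and by H3K27ac score, and pairs of isoforms. Other genes named for the quartiles, distances, shared promoters and motifs were chosen after their values were seen. Alternatives varied the window, the TSSs, the overlap, the score minimum and the members. Some genes that these rules would name are not reported here, and are counted only within their groups.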

Additional observations from a re-analysis of the deposited data

How the results depend on the processing

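No paired analysis was possible because each antibody has 1 peak list with no value per sample, and for the same reason no replicate could be left out. Of 58 recomputed values, 56 moved by less than their counting interval. Both others came from an alternative chosen after seeing the data, leaving out the 7 Cox isoforms without both marks, Ndufa4l2 and the longer Atp5o model: Pol2 peaks were then at 88 of 89 members (98.9%) and H3K27ac peaks at 89 of 89 (100%). Over all alternatives the V5 share of members ranged from 12.2 to 20.4%, and that of members with both marks from 14.3 to 22.2%. It stayed below the share of coding genes with both marks in each alternative except the upper 50% of each list by score, where the values were 14.3 and 14.2%. The coding gene share lay inside the interval of the members for peaks covering a TSS (11.6 to 27.8%, against 26.7%). The same held without another coding TSS within 3 kb (12.3 to 35.6%, against 29.5%). For subunits only and for the 1 kb window it lay at the upper edge, at 30.4 and 28.8%. A gene without a peak may still be bound or transcribed below the calling threshold.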
